A study of Mus musculus with 6 samples.

Results

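The troponin genes of skeletal and cardiac muscle were followed in differentiating primary mouse myoblasts with and without an active form of beta-catenin. They are 8 genes, taken by symbol as the known subunits of the complex: the troponin T genes Tnnt1, Tnnt2 and Tnnt3, the troponin I genes Tnni1, Tnni2 and Tnni3, and the troponin C genes Tnnc1 and Tnnc2. All 8 were measured, each by 1 probe set, among 23279 named genes. The samples were 6 cultures on 6 arrays, 3 control and 3 activated. All were primary myoblasts from limb muscle of C57bl6N mice that carried Pax7-CreERT2, a Cre recombinase activated by tamoxifen and driven by the satellite cell gene Pax7, and 1 beta-catenin allele with loxP sites at exon 3, whose removal leaves a protein that escapes degradation. Cells were expanded for 5 passages in 20% FBS with bFGF at 2 ng/ml, and differentiation followed for 24 hours in 2% HS. Activated cultures received 4-OH tamoxifen in ethanol while differentiating, and control cultures received ethanol. The drug, the active Cre and the recombined allele came together in the activated group, so their effects cannot be told apart. Only cells that expressed Pax7 could carry an active Cre, and the sources used here do not give the share of cells recombined, the dose or the age of the mice.

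Troponin is the calcium switch of the thin filament of striated muscle. Troponin C binds calcium, troponin I holds the actin and myosin interaction off at rest, and troponin T anchors the complex to tropomyosin. Each subunit has isoforms named for the muscle in which they predominate. Tnnt1 and Tnni1 encode the slow skeletal isoforms, Tnnt3 and Tnni2 the fast skeletal ones, and Tnnt2 and Tnni3 the cardiac ones. Tnnc1 serves slow and cardiac muscle and Tnnc2 fast muscle. Developing skeletal muscle expresses a mixture, including cardiac troponin T, before fibre types separate.

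The troponin I and troponin T genes lie beside each other in the mouse genome. In the RefSeq annotation (GRCm38.p6), Tnnt1 and Tnni3 had 0 genes between them, Tnni1 and Tnnt2 had 1 (Lad1), and Tnni2 and Tnnt3 had 1 (Lsp1). Each adjacent pair thus joins isoforms of different muscle types, except the fast pair. RefSeq promoter windows, from 250 bases before to 50 after a transcript start, were matched by symbol for 6 of the 8 genes (8 windows): Tnnt1, Tnnt2, Tnni1, Tnni3, Tnnc1 and Tnnc2. Of these, 4 windows are shown. Those of the neighbours Tnnt1 and Tnni3 are given because the differences of these genes had opposite signs, and those of Tnni1 and Tnnc2 because their differences were the largest among the slow and the fast isoforms. The Tnnt1 window is chr7:4515926-4516225 on the minus strand, that of Tnni3 is chr7:4522479-4522778 on the minus strand, that of Tnni1 is chr1:135799171-135799470 on the plus strand, and that of Tnnc2 is chr2:164779685-164779984 on the minus strand. Each is written 5′ to 3′ along the gene, and capitals mark the E-box CANNTG, the motif bound by myogenic factors such as myogenin.
Tnnt1: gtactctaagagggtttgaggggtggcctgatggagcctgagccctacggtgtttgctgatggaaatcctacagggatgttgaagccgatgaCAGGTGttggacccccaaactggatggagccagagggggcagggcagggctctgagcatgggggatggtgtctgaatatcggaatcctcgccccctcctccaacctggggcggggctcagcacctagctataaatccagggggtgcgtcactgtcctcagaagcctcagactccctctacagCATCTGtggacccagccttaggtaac
Tnni3: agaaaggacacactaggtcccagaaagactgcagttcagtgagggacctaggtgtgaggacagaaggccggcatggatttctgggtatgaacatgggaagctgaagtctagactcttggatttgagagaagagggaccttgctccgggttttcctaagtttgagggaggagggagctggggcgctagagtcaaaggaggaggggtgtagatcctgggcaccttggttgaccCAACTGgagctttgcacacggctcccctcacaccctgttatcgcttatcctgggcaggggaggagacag
Tnni1: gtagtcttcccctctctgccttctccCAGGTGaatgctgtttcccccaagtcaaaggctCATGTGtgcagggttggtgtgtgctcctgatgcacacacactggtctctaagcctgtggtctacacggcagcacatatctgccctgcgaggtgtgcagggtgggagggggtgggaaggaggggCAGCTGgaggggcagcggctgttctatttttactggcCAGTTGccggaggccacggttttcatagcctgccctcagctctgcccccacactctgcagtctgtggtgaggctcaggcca
Tnnc2: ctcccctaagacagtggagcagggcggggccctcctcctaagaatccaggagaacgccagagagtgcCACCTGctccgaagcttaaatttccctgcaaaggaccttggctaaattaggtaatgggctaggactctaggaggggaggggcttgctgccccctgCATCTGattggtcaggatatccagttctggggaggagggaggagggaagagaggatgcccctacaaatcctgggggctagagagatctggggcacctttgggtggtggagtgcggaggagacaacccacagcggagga
The E-box was found 2 times in the Tnnt1 window, 1 time in that of Tnni3, 4 times in the Tnni1 window shown and 2 times in that of Tnnc2. A second Tnni1 window, chr1:135799261-135799560, overlaps the one shown and held 2 of the same E-boxes, so the 8 windows are not all separate. The E-box reads the same on both strands, and all 8 windows of the troponin genes held it, as did 69.1% of the 21227 windows of genes on the array. The motif CATTCC, the MCAT element bound by Tead factors, was found on either strand in 2 of the 8 windows (Tnnt2 and Tnnc1) and in 13.5% of all. The TCF/LEF motifs CTTTGAT and CTTTGTT, through which beta-catenin acts, were found in 1 of the 8 windows, the second of Tnnt2, and in 8.10% of all. The MEF2 site and the CArG box, each searched on both strands, were found in 0 of the 8 windows and in 2.59% and 1.44% of all. Within a window no match overlapped another. These are matches of letters in short windows.

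The arrays had median log2 values of 4.08 to 4.37 and SDs over all genes of 1.72 to 2.13. Among control arrays, replicate 3 was the lowest for 6 of the 8 troponin genes, against 31.0% of all genes. Among activated arrays, replicate 2 was the highest for 7 of the 8, against 26.6% of all genes. Over all genes, control replicate 3 correlated least with the rest of the arrays (mean 0.896, against 0.923 to 0.946). Results are therefore given with and without these arrays. The markers of skeletal myocytes fixed for this work (Des, Ckm, Myod1, Myog, Cdh15 and Acta1) were above the 95th percentile of 1083 olfactory receptor genes on every array for 5 of 6. Ckm, the muscle creatine kinase, was above it on 5 of the 6 arrays. The values of that percentile, a description of the dim end of the scale, were 3.86 to 4.70. All 8 troponin genes lay above it on all 6 arrays. The percentile was close to the array medians, so many other genes lay above it too, and their share was not computed.

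Of the 8 troponin genes, 7 had a higher mean in activated than in control cultures and 1, the cardiac Tnni3, had a lower one. The median log2 difference of the 8 was 1.30, against -0.08 over all genes, and 6 of the 8 differences exceeded 1 (4.28% of all genes). That count was 1 when control replicate 3 was left out (2.89% of all genes) and 2 when activated replicate 2 was (2.56%). It was 2 after cyclic loess (2.97%) and 3 after quantile normalization (3.09%) or scaling to an equal spread (3.85%). The median was 0.83 without activated replicate 2 and 0.80 after cyclic loess. None passed limma's test with adjustment over all genes (adjusted p from 0.446 to 0.709), nor did any gene of the array (0.00%; 1830 genes had an unadjusted p under 0.05). At that unadjusted level Tnnt1, Tnnt3, Tnni1 and Tnnc1 were higher and Tnni3 lower, 4 and 1 of 8, where 4.44% of all genes were higher and 3.42% lower. The 3 genes Tnnt3, Tnni1 and Tnnc1 had every activated array above every control array (5.40% of all genes), and Tnni3 had every activated array below (7.40%). With the replicate number as a block, 7 members were higher and 1 lower at an unadjusted p under 0.05 (9.63% and 7.01% of all genes). After adjustment none passed the blocked limma test (adjusted p from 0.0692 to 0.235), which called 0.120% of genes higher and 0.0129% lower. Leaving out control replicate 3 reduced the members past an unadjusted p of 0.05 to 2 higher and 1 lower, where 3.57% and 3.26% of all genes were so. Leaving out activated replicate 2 reduced them to 1 and 1 (2.24% and 1.65%). They were 2 and 1 after scaling the arrays to an equal spread (5.22% and 2.64%). In bulk RNA a difference in the number of differentiated cells and one in RNA per cell cannot be told apart.

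**Figure D1:**
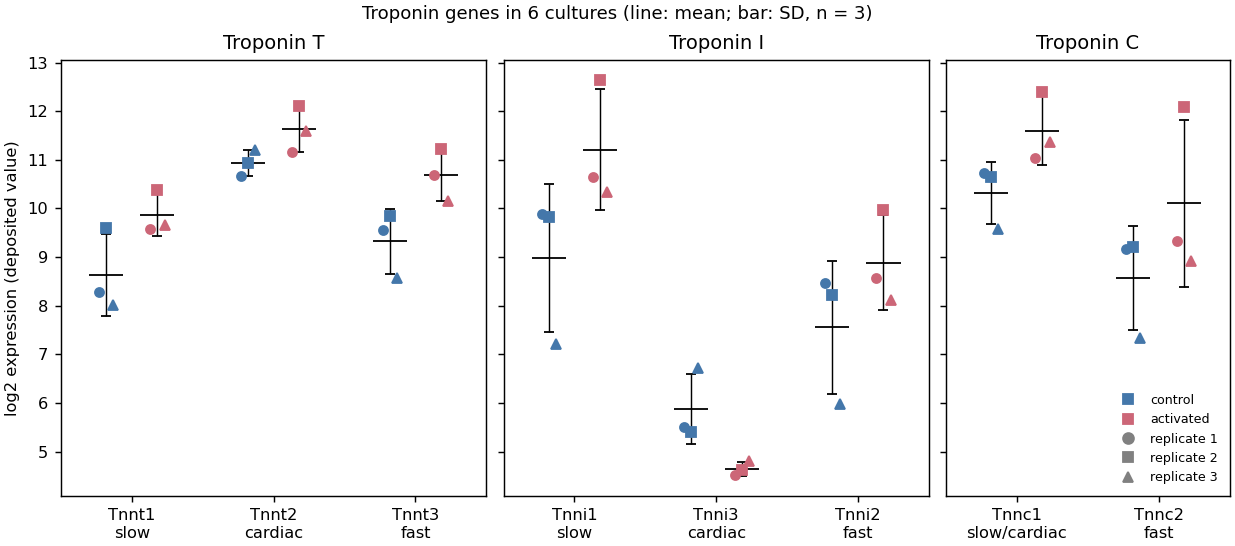
Deposited log2 expression of the 8 troponin genes in each culture, by subunit. Points are arrays (blue control, red activated; symbol by replicate number), lines are means and bars SDs of 3 cultures. Control replicate 3 is lowest in 6 genes and activated replicate 2 highest in 7, and Tnni3 is the gene whose activated arrays all lie below its control arrays.

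Troponin T anchors the complex to the thin filament. The slow isoform Tnnt1 (Entrez 21955) was at 8.29, 9.60 and 8.01 in the control cultures, in the order of replicates 1, 2 and 3 used throughout, and at 9.58, 10.37 and 9.67 in the activated ones. Control replicate 2 lay within the activated range, just above activated replicate 1, and the other control arrays lay below it. The group means were 8.63 ± 0.85 (SD, n = 3) and 9.87 ± 0.43, a difference of 1.24 ± 0.45 (SE), or 2.36-fold (limma, adjusted p = 0.561). The fast isoform Tnnt3 (Entrez 21957) was at 9.56, 9.85 and 8.58 in control and at 10.68, 11.22 and 10.15 in activated cultures. All 3 activated arrays exceeded all 3 control arrays. The difference was 1.36 ± 0.41 (SE), or 2.56-fold (limma, adjusted p = 0.451). It was the most even of the 8 across the numbered arrays, at 1.13, 1.37 and 1.58, and had the smallest adjusted p of the blocked limma test (0.0692). The cardiac isoform Tnnt2 (Entrez 21956), also an embryonic skeletal form, was at 10.66, 10.93 and 11.20 in control and at 11.17, 12.12 and 11.60 in activated cultures. Here control replicate 3 was the highest control array, just above activated replicate 1, unlike in the other troponin T genes. The difference was 0.70 ± 0.30 (SE), the smallest in size of the 8 (limma, adjusted p = 0.632). It depended on the scaling of the arrays, at 0.39 after quantile normalization, 0.19 after scaling to an equal spread and 0.07 after cyclic loess. Without activated replicate 2 it was 0.45, and without control replicate 3 0.83. Tnnt1 and Tnnt3 differed by 0.77 and 0.83 after cyclic loess, by 0.93 and 0.98 without control replicate 3 and by 0.99 and 1.09 without activated replicate 2.

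Troponin I, the inhibitory subunit, had the largest difference and the only negative one. The slow isoform Tnni1 (Entrez 21952), which predominates in embryonic skeletal muscle, was at 9.88, 9.83 and 7.22 in control and at 10.65, 12.64 and 10.34 in activated cultures. Control replicate 3 lay far below the other control arrays and activated replicate 2 far above the other activated ones, and the groups did not overlap. The difference was 2.24 ± 0.86 (SE), or 4.71-fold (limma, adjusted p = 0.589). It was larger than that of 99.7% of all genes. With control replicate 3 left out it was 1.36, and with activated replicate 2 left out 1.52.

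The fast isoform Tnni2 (Entrez 21953) was at 8.47, 8.22 and 5.98 in control and at 8.57, 9.98 and 8.12 in activated cultures. The groups overlapped, since activated replicate 3 was below control replicates 1 and 2. The difference of 1.33 ± 0.74 (SE; limma, adjusted p = 0.697) was uneven, and between the arrays numbered 1 it was 0.11. It was 0.54 without control replicate 3 and 0.79 when the set lacked activated replicate 2. The cardiac isoform Tnni3 (Entrez 21954), restricted to heart muscle in the adult, was at 5.51, 5.41 and 6.71 in control and at 4.52, 4.63 and 4.80 in activated cultures. All activated arrays lay below all control arrays, and control replicate 3 was the highest of the 6. The difference was -1.23 ± 0.37 (SE; limma, adjusted p = 0.446). Leaving out control replicate 3 gave -0.81, and leaving out activated replicate 2 gave -1.22. Activated values lay 0.33 to 0.77 above the olfactory receptor percentile of their own arrays, and control values 0.81 to 2.05 above it. Of the cardiomyocyte markers Myh6, Nppa, Nppb, Gata4, Nkx2-5, Tbx5, Tbx20, Hand2, Myl7 and Ryr2, 7 of 10 were at or below that percentile on every array and 2 (Gata4 and Nkx2-5, outside the naming rule) were above it on every array. Of the 10, 9 had a lower activated than control mean, the median difference was -0.27, and 0 passed an unadjusted p of 0.05. Their summed level (log2 of the sum of unlogged values) ranged from 7.70 to 7.99 in control and from 7.31 to 7.73 in activated cultures. Its part in the Tnni3 difference was not tested.

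Troponin C binds calcium. The slow and cardiac isoform Tnnc1 (Entrez 21924) was at 10.73, 10.65 and 9.58 in control and at 11.03, 12.39 and 11.37 in activated cultures. The groups did not overlap, although control replicate 1 and activated replicate 1 differed by 0.30. The difference was 1.28 ± 0.45 (SE), or 2.42-fold (limma, adjusted p = 0.548). It was 0.91 without control replicate 3, 0.88 without activated replicate 2 and 0.68 after cyclic loess. The fast isoform Tnnc2 (Entrez 21925) was at 9.16, 9.22 and 7.33 in control and at 9.32, 12.08 and 8.93 in activated cultures. Activated replicate 3 was below control replicates 1 and 2, and activated replicate 2 stood far above all the other arrays. The difference was 1.54 ± 0.88 (SE), or 2.91-fold (limma, adjusted p = 0.709), the largest of the fast isoforms, with the largest SE of the 8. With control replicate 3 left out it was 0.92, and with activated replicate 2 left out 0.56.

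**Figure D2:**
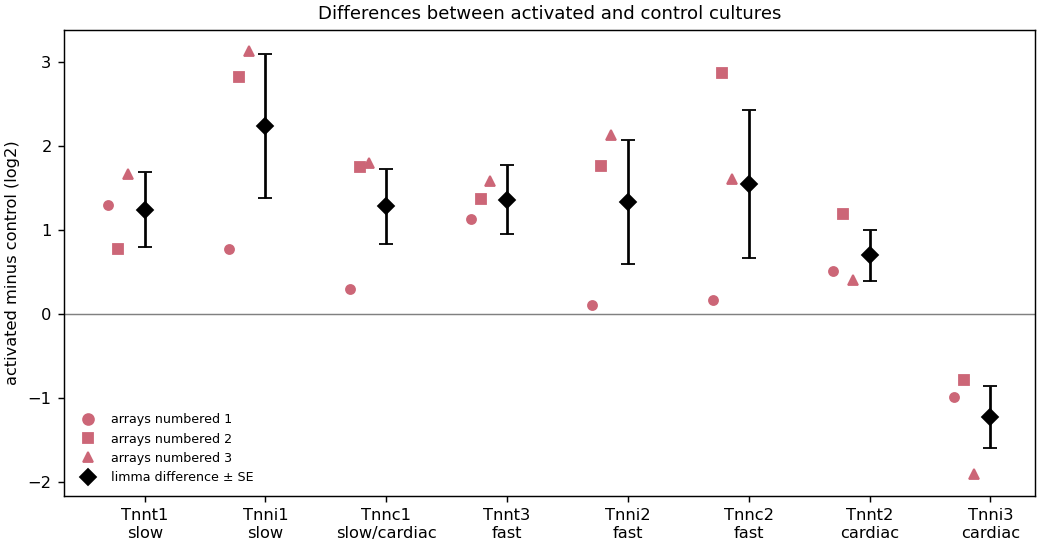
Activated minus control on the log2 scale for each troponin gene, slow isoforms first. Black diamonds are limma differences with SE bars and red symbols the differences between arrays of the same number. Tnni1 has the largest difference (2.24) and Tnni3 the only negative one (-1.23), and for Tnni1, Tnni2, Tnnc1 and Tnnc2 the arrays numbered 1 differ least.

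The sign of the difference was the same in each of the 3 numbered pairs for all 8 genes, positive in 7 (16.6% of all genes) and negative in 1 (25.0%). The size varied more than the sign. Between the arrays numbered 1, Tnni2, Tnnc2 and Tnnc1 differed by 0.11, 0.16 and 0.30, and Tnnt3 and Tnnt1 by 1.13 and 1.29. The spread within groups was also uneven. The residual SD of the fit was 1.43 for Tnnc2, 1.39 for Tnni1 and 1.19 for Tnni2, at percentiles 99.2, 99.1 and 98.0 of all genes, and 0.39 for Tnnt2. The median over all genes was 0.35. Tnni1 had therefore the largest difference but not the smallest p, and Tnnt2 had the smallest residual SD and the smallest difference.

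Whether slow, cardiac and fast isoforms of a subunit shifted relative to each other was read from their log2 difference within each array, in 7 contrasts. With 3 arrays against 3 an exact permutation test cannot go below p = 0.1, and with the numbered pairs an exact sign-flip test cannot go below 0.25, so no contrast could pass. For troponin T, Tnnt3 minus Tnnt1 was 1.27, 0.25 and 0.57 in control and 1.10, 0.84 and 0.49 in activated cultures. The groups overlapped throughout. The fast to slow contrast of troponin T changed by 0.12 (exact permutation test, two-sided p = 0.8, adjusted p = 0.9). For troponin I, Tnni2 minus Tnni1 was -1.42, -1.61 and -1.24 in control and -2.08, -2.67 and -2.23 in activated cultures. Every activated value was below every control value, so the slow isoform was higher relative to the fast one. Between arrays of the same number the change was -0.66, -1.06 and -0.99. The change was -0.90 (exact permutation test, two-sided p = 0.1, adjusted p = 0.233), with -0.81 when control replicate 3 was left out and -0.73 when activated replicate 2 was. For troponin C, Tnnc2 minus Tnnc1 was -1.57, -1.43 and -2.25 in control and -1.71, -0.31 and -2.44 in activated cultures. Activated replicate 2 alone lay above the control range. The change was 0.26 (exact permutation test, two-sided p = 0.9, adjusted p = 0.9), and its sign turned to -0.32 without activated replicate 2. Between arrays of the same number, the fast minus slow change was negative in 3 of 3 pairs for troponin I. It was negative in 2 of 3 for troponin T (-0.16, 0.60 and -0.08) and for troponin C (-0.14, 1.12 and -0.19), where the positive mean came from the arrays numbered 2. The mean change of troponin T turned to -0.11 without control replicate 2 and to -0.03 without activated replicate 1.

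Of the contrasts with cardiac isoforms, those of troponin I came without overlap of the groups and those of troponin T with it. Tnni3 minus Tnni1 averaged -3.10 ± 2.24 in the control group and -6.56 ± 1.29 in the activated group (SD, n = 3). This change of -3.47 came without overlap. That was given by the single genes, since all activated arrays lay above the control arrays for Tnni1 and below them for Tnni3. Tnni2 minus Tnni3 averaged 1.68 ± 2.09 and 4.24 ± 1.03, a change of 2.56, also without overlap. Both contrasts had the smallest exact permutation p the design allows (two-sided p = 0.1, adjusted p = 0.233), and without control replicate 3 their changes were -2.17 and 1.36. After scaling to an equal spread, Tnni2 minus Tnni3 changed by 2.32 and no longer had that smallest p (exact permutation test, two-sided p = 0.2). Each of the 3 contrasts of troponin I follows from the others, so they are not independent results. Cardiac troponin T differed less from its isoforms. Tnnt2 minus Tnnt1 changed by -0.54 (-0.10 without control replicate 3) and Tnnt3 minus Tnnt2 by 0.66 (0.15 without it), each with overlapping groups (exact permutation test, two-sided p = 0.4, adjusted p = 0.56). In the pairs Tnnt3 minus Tnnt2 changed by 0.62, 0.18 and 1.18, all positive. Over pairs, this contrast and the 3 of troponin I had the smallest exact sign-flip p possible (two-sided p = 0.25, adjusted p = 0.438). The neighbours Tnnt1 and Tnni3 therefore differed in opposite directions, 1.24 and -1.23, while Tnni2 and Tnnt3 differed by 1.33 and 1.36. Lsp1, which lies between Tnni2 and Tnnt3, differed by 0.51, and Lad1, between Tnni1 and Tnnt2, by -0.11. Both are outside the naming rule and are named for their position.

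**Figure D3:**
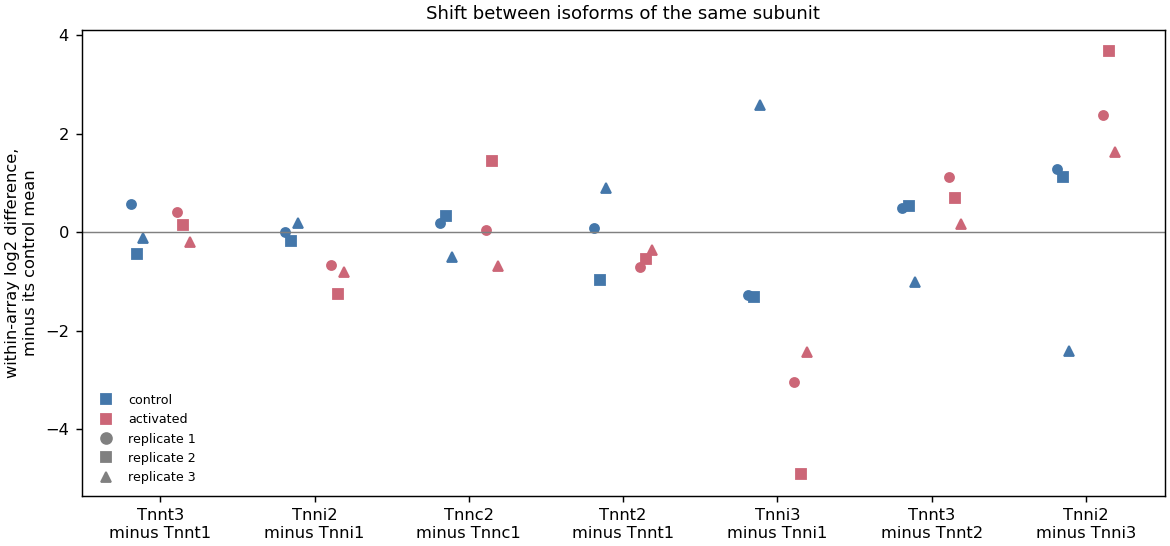
Within-array log2 difference between isoforms of a subunit, with the mean of the 3 control arrays set to 0 for each contrast. Points are arrays (blue control, red activated; symbol by replicate number). In the values as deposited, groups separate for the 3 troponin I contrasts and overlap for the contrasts of troponin T and troponin C. Contrasts of the same subunit share genes and are not independent.

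The order of the arrays was shared beyond the troponins. The skeletal myocyte markers had their lowest mean log2 level in control replicate 3 and their highest in activated replicate 2, with ranges of 7.45 to 8.53 in control and 8.69 to 9.45 in activated cultures. Myog, the differentiation factor myogenin, was at 8.68, 8.85 and 6.51 in control and at 9.36, 11.33 and 10.01 in activated cultures (limma, adjusted p = 0.502). It thus had the same lowest and highest arrays as Tnni1. Of the 6 markers 5 were higher in activated cultures, 4 of them at an unadjusted p under 0.05 (4.44% of all genes). The exceptions were Myod1, which differed by 0.16 and was highest among controls in replicate 3, and Ckm, which differed by -0.27 and was lower in all 3 numbered pairs; neither falls under the naming rule. After quantile normalization, cyclic loess or scaling to an equal spread 2 of the 6 markers were lower. Markers of dividing cells ran the other way: 5 of 5 measured were lower in activated cultures at an unadjusted p under 0.05, against 3.42% of all genes. Their summed log2 level was 10.01 to 10.73 in control and 7.91 to 9.30 in activated cultures, with the lowest mean in activated replicate 2. Each of the 5 markers had every activated array below every control array, as did 7.40% of all genes. Within the control group they did not mirror the troponins, since control replicate 3 had the lowest mean there too. Their part in the troponin differences was not tested. Fibroblast markers were lower for 5 of 6 (summed log2 level 7.48 to 8.18 and 6.74 to 7.62), macrophage markers for 5 of 6 (6.84 to 8.10 and 6.74 to 7.41) and smooth muscle markers for 3 of 6 (9.33 to 9.84 and 9.68 to 10.73), where 59.7% of all genes were lower. After cyclic loess (50.4% of all genes lower) these counts were 3, 5 and 1 of 6.

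**Figure D4:**
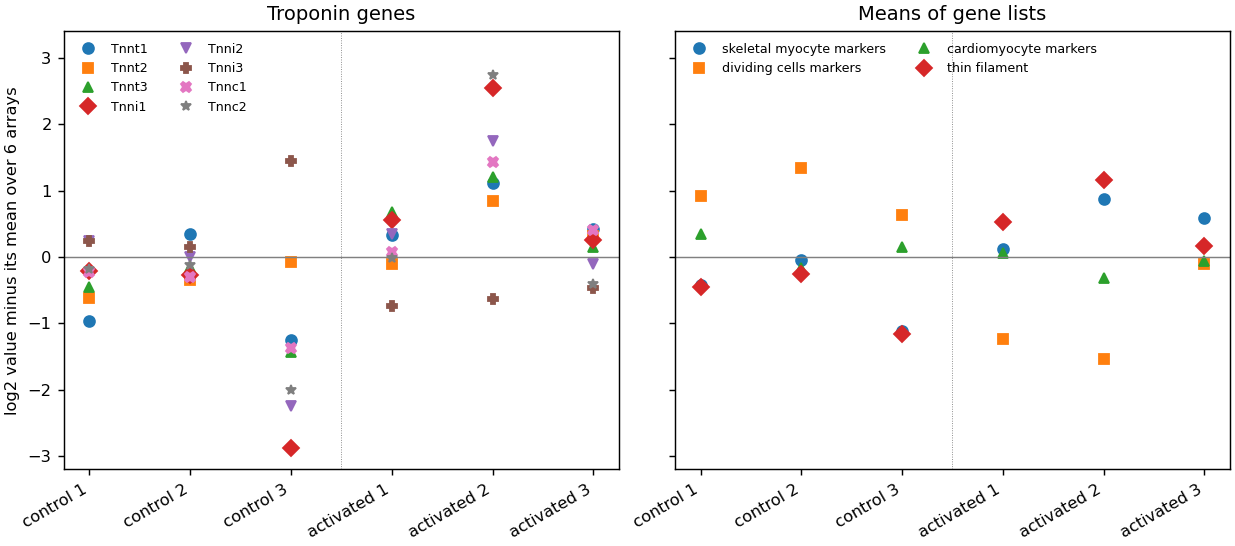
Left, each troponin gene's log2 value minus its mean over the 6 arrays; right, the same for the mean of 4 gene lists. All troponin genes but Tnni3, and the myocyte markers, peak in activated replicate 2, while Tnni3 peaks in control replicate 3 and the markers of dividing cells are lower in activated arrays.

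Other thin filament genes were mostly higher too. Of 16 thin filament genes, 15 were higher in activated cultures and 9 were so at an unadjusted p under 0.05 (4.44% of all genes), with a median difference of 1.40. The lower one was the filament-capping Tmod4 (-0.52, outside the naming rule). None passed limma's adjustment. With the block Nrap and Klhl41 did (limma, adjusted p = 0.0444 and 0.0434), the second outside the naming rule. Both calls ended when the arrays were first quantile-normalized and when the pair numbered 1 or 2 was left out. Without the pair numbered 3 the blocked test called 6 of the 16 thin filament genes, where 501 of 23279 genes were called. Nrap, which assembles actin filaments, differed by 2.13 ± 0.44 (SE), the filament-capping Tmod1 by 1.74 ± 0.45 and Klhl40, which stabilizes thin filament proteins, by 1.42 ± 0.37. The skeletal and cardiac actins Acta1 and Actc1 differed by 1.68 and 1.34. Tropomyosins, the proteins to which troponin T binds, were uneven. The slow isoform Tpm3 was at 5.08, 4.71 and 5.12 in control and at 6.65, 7.48 and 5.61 in activated cultures, with no overlap. Tpm1 differed by 0.01 ± 0.35 (SE) and Tpm2 by 0.42 ± 0.23 (limma, adjusted p = 0.994 and 0.696). Tpm4, a non-muscle form, differed by 0.16 ± 0.81 (SE).

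Slow and fast fibre genes were higher in like numbers. Of 12 slow fibre genes 11 were higher, with 6 at an unadjusted p under 0.05 and a median difference of 1.46, and of 12 fast fibre genes 11 were higher, with 6 at that level and a median of 1.34. The background was again 4.44%, and the 2 lists were not compared by a test. Leading the slow list were the calcium pump Atp2a2 (1.03 ± 0.28, SE), the slow myosin heavy chain Myh7 (2.15 ± 0.59) and Tpm3. Leading the fast list were the actinin Actn3 (1.81 ± 0.37), the calcium pump Atp2a1 (1.30 ± 0.30) and the fast myosin heavy chain Myh1 (3.07 ± 0.71). Developmental genes were higher for 7 of 7, with 4 at an unadjusted p under 0.05 and a median of 1.32. The embryonic myosin Myh3 differed by 1.32 ± 0.33, the perinatal myosin Myh8 by 2.17 ± 0.59 and the embryonic light chain Myl4 by 1.96 ± 0.77. Of 18 regulators of troponin and fibre type genes 16 were higher, 6 at an unadjusted p under 0.05, with a median of 0.58. They were led by Tead4 (1.20 ± 0.30, SE), Prox1 (2.00 ± 0.52), a factor of slow fibre identity, and Mef2a (0.99 ± 0.26). Without activated replicate 2 the counts at that level were 5 for the thin filament, 3 for slow, 3 for fast and 2 for developmental genes, against 2.24% of all genes. Leaving out control replicate 3 gave a developmental count of 2, against 3.57%. With the block the developmental count was 7 and the slow count 9, against 9.63% of all genes. The Z-disc gene Myoz2 of the slow list and the regulator Mef2c, both outside the naming rule, passed the blocked limma test (adjusted p = 0.0434 and 0.0479). Neither list had a call after quantile normalization or without the pair numbered 1 or 2. Without the pair numbered 3 the blocked test called 5 slow, 6 fast, 1 developmental and 2 regulator genes, where 501 of 23279 genes were called.

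**Figure D5:**
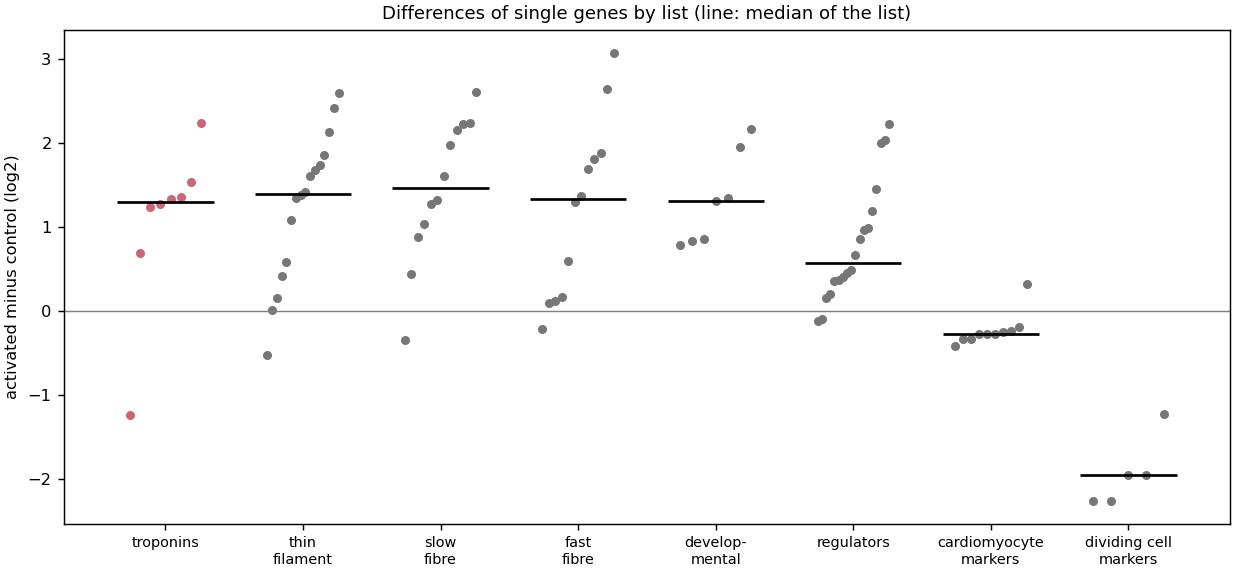
Activated minus control (log2) for every gene of the troponin set and of 7 gene lists, sorted within each list; the line is the list's median. In the values as deposited, medians lie between 1.30 and 1.46 for the troponins and for thin filament, slow, fast and developmental genes. They lie at 0.58 for regulators and below 0 for the markers of cardiomyocytes and of dividing cells. After cyclic loess, not drawn, the first 5 medians were 0.80, 0.99, 1.51, 1.04 and 0.75.

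Likeness in pattern was measured as the root mean square difference between log2 values over the 6 arrays, each gene centred on its own mean. Among the troponins themselves the smallest distances were those of Tnnt3 and Tnnc1 (0.31) and of Tnnt1 and Tnnt3 (0.35). Yet 141 genes were nearer to Tnnt3 than Tnnc1 was, and 257 nearer to Tnnt1 than Tnnt3 was. By that count Tnni1 and Tnni2 were closer (0.50), with 17 genes nearer to Tnni1. Tnni3 was at 1.04 or more from each of the other 7. Over all other genes, those nearest to Tnnt1 were Ostm1 and Gm5620 (0.11 and 0.13), to Tnnt2 Slc6a8 and Ecd (0.08 and 0.10), and to Tnnt3 Slc38a9 and Dusp27 (0.12 and 0.13). Nearest to Tnni1 were the atrial and embryonic light chain Myl4 and the small heat shock protein Hspb8 (both 0.28), and to Tnni2 Mospd1 and Snapin (0.16 and 0.25). Tnni3 was nearest to Polq and Dna2 (both 0.19), which were lower by 1.07 and 1.01 in activated cultures. Both are dim genes, with means of 3.91 and 4.58 in control and 2.84 and 3.58 in activated cultures. The olfactory receptor percentile was 3.86 to 4.70 over the arrays, above both activated means. Tnnc1 was nearest to Fnta and Got2 (0.12 and 0.13), and Tnnc2 to the muscle phosphoglycerate mutase Pgam2 and to Prdx3 (0.14 and 0.24). These distances are descriptions over 6 arrays.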

How the data were processed

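The table of log2 expression values was deposited by the authors. Per the submitters' processing notes, RMA and Partek were used, in unstated roles and versions. Sources used here give no array design, genome build or detection calls. Of 24479 probe sets 23281 had 1 gene symbol in the platform annotation, 0 had several and 1198 none. For 2 symbols with several probe sets the brightest was kept, leaving 23279 genes. In R 4.3.3, limma 3.58.1 fitted group as the only term (two-sided, Benjamini-Hochberg over all genes), without a filter on dim genes. The script was tested on simulated data.

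The labels name 3 independent cultures per group and no animals. The p-values thus cover the spread between cultures, and the number of arrays limits the precision. Deviations from group means correlated at 0.38, 0.49 and 0.45 between arrays sharing the replicate numbers of the titles. All exceed the criterion of 0.1, so the numbers were taken as pairs, and a blocked fit is given where it changes a call or moves a count by 1.5 times or more. The correlations do not show what arrays of the same number share. A common animal or day is not given by the labels and was not tested. An exact sign-flip test of the contrasts over pairs was added after the data were seen. Alternatives were median centring, quantile normalization, cyclic loess, equal spread, a variance trend, brighter genes only, all probe sets and arrays left out. Members and lists were chosen with earlier results of these data known. Named genes are the 8 members, the 3 of each list with the smallest p, partner actins and tropomyosins, and the 2 genes nearest to each member. No protein sequences were used here.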

Additional observations from a re-analysis of the deposited data

How the results depend on the processing

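The 8 troponin differences kept their sign, and none passed an adjusted p of 0.05 in limma, in each of 18 refits. These refits gave 144 values over the 8 genes (limma, adjusted p from 0.0634 to 0.9998). For the sign many of these refits were no separate check. The block on all arrays, the variance trend, brighter genes only and all probe sets leave each difference as deposited by construction. Likewise the block after quantile normalization repeats the difference of quantile normalization alone. The other refits share most of their arrays. Genes passing adjustment numbered 0 as deposited, 31 with the replicate block, 0 with the block after quantile normalization, 0 to 28 when 1 array was left out (28 without activated replicate 3) and 0 to 501 when the block lacked 1 pair (501 without replicate 3). Genes with an unadjusted p under 0.05 numbered 1830 as deposited, 3875 with the replicate block, 3201 with the block after quantile normalization and 1166 among genes above the median level. They were 907 (without activated replicate 2) to 3066 (without control replicate 2) with 1 array left out, and with the block 2822, 2787 and 3528 without the pairs numbered 1, 2 and 3. Median centring moved the median difference of all genes from -0.08 to 0.04 and the share higher among these genes from 56.5% to 71.0%, and equal spread gave 66.4%. The change of Tnnt3 minus Tnnt1 reversed to -0.11 without control replicate 2 and to -0.03 without activated replicate 1, within -0.11 to 0.40 over single arrays left out. That of Tnnc2 minus Tnnc1 was -0.32 (without activated replicate 2) to 0.74. The other 5 isoform contrasts and the direction counts of the 5 lists kept their direction. The cause was not tested.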
